A study of Mus musculus with 4 samples.

Results

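The nuclei described here are the Esr1 Otx2os1 nuclei of the mouse lateral septum (LS), that is, nuclei of inhibitory neurons in which both Esr1, the gene of estrogen receptor alpha, and Otx2os1, a long noncoding RNA read from the strand opposite the transcription factor gene Otx2, were detected. They were taken from single-nucleus RNA sequencing libraries, in which each captured RNA molecule is counted once by its unique molecular identifier (UMI). A nucleus was kept with 200 to 6000 detected genes, under 2% of UMIs from mitochondrial genes and at least 2000 UMIs. It was then counted as a member with at least 1 UMI of Esr1, at least 1 of Otx2os1 and at least 1 of Gad1 and Gad2 together, the genes of the enzymes that make GABA, and with fewer than 2 UMIs of Slc17a6, the vesicular glutamate transporter of excitatory neurons, and fewer than 3 of St18, which marks oligodendrocytes. The rule found 612 of 48940 nuclei within the limits on genes, mitochondrial UMIs and total UMIs, and of 58372 barcodes in all. This pair of genes is the marker pair that the study gave for its subcluster LSN15. The levels of the rule's own genes therefore describe the choice and support nothing.

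The data comprised 4 libraries, each a pool of LS tissue from 3 male mice aged 6 to 8 weeks. The 2 C57J libraries came from the strain C57BL/6JNifdc, the nude library from BALB/c nude mice, which lack T cells on a BALB/c background, and the BALB/c library from BALB/c mice, whose T cells are present and whose immunity the study describes as Th2-skewed. C57J 2, nude and BALB/c were processed together, and C57J 1 in a separate run. The strain of the nude mice differs from C57J in its whole genetic background as well as in T cells, and each of nude and BALB/c is 1 library, so that background, immune state and library cannot be told apart for either alone. Library C57J 1 held 123 members, C57J 2 119, nude 208 and BALB/c 162. Their median depth was 8914, 7667, 7154.5 and 12379.5 UMIs in that order, with BALB/c nuclei the deepest. Any 2 libraries shared between 29 and 63 barcode sequences, and none of these was a member in both.

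The LS is a forebrain nucleus built almost wholly of GABA neurons that link the hippocampus with the hypothalamus and that take part in social, fear and anxiety-related behaviour. Estrogen receptor alpha is a nuclear receptor: bound by estradiol it enters or stays in the nucleus, binds DNA at estrogen response elements and, with coactivators, changes transcription of its targets, of which the progesterone receptor is the classic example. Septal and preoptic neurons with sex steroid receptors are known for their part in reproductive and social behaviour.

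The label of LS neurons was checked against markers. Trpc4, the channel gene that the study used to mark LS neurons, had a UMI in 572 of the 612 members (93.5%). At an equal depth of 2000 UMIs per nucleus it had one in 66.8% of members, 19.9% of oligodendrocyte nuclei and 16.8% of astrocyte nuclei. Its level, in UMIs of the gene per 1000000 UMIs summed over the members (CPM), was 647, 634, 657 and 605, with the libraries here and below in the order C57J 1, C57J 2, nude, BALB/c. For comparison, the other LS GABAergic nuclei were defined as those under the same limits with at least 1 Trpc4 UMI and none of Esr1 or Otx2os1, 23374 nuclei in all, so Trpc4 itself was not compared. The 6 LS markers (Trpc4, Prdm16, Zeb2, Sox11, Dgkg, Homer2) were all detected in every library and summed to 1778, 1771, 1919 and 1832 CPM in members. The sum was higher in every library in the other LS nuclei, at 2206, 2299, 2368 and 2213 CPM, a gap to which their choice by Trpc4 adds, and also in all gated nuclei with neither Esr1 nor Otx2os1, which were not chosen by Trpc4, at 1901, 2019, 2137 and 1946 CPM. All 6 were also detected in every library in oligodendrocyte nuclei, where they summed to 2258, 2118, 1944 and 2400 CPM, above the members, with Zeb2 at 1761 CPM. In astrocyte nuclei they summed to 1183, 1209, 1324 and 1232 CPM. The sum therefore does not by itself set LS neurons apart from oligodendrocytes. Markers of other places were present too. Elavl2, which the study used for medial septum, stood at 195 ± 23.1 CPM (SD, n = 4 libraries) in members and 141 ± 38.2 in the other LS nuclei, and the 9 medial septum markers summed to 185 to 276 CPM against 139 to 236 CPM. The 8 striatal markers summed to 847 to 905 CPM against 609 to 766 CPM, most of it Pde10a, whereas Rarb, the study's striatal marker, was lower in members. The hypothalamic and preoptic markers summed to 4.86, 6.21, 6.77 and 7.74 CPM, against 3.93, 4.14, 4.74 and 3.404 CPM in the other LS nuclei, and so were higher in members in every library, with Nkx2-1 the most abundant and Sim1, Otp, Hmx2 and Hmx3 at 0 in members. The part of these other markers in the results below was not tested.

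Both rule genes were read from few molecules. Esr1 was detected by a single UMI in 347 of the 612 members (56.7%), Otx2os1 by a single UMI in 204 (33.3%), and both by a single UMI in 122 (19.9%), while 183 members carried at least 2 UMIs of each. Esr1 stood at 202, 262, 239 and 219 CPM and Otx2os1 at 292, 330.0, 319 and 278 CPM, Gad1 at 179 to 199 CPM, Gad2 at 309 to 344 CPM, Slc17a6 at 4.10 to 9.23 CPM and St18 at 26.4 to 66.2 CPM. Esr1 (chr10:4611593-5005614, plus strand, protein coding, GRCm38) and Otx2os1 were carried together by 721 nuclei within the limits, of which 612 were members. Just outside the rule, 31 of the 721 had 2 or more Slc17a6 UMIs, 52 had 3 or more of St18 and 35 had none of Gad1 or Gad2. Detection in oligodendrocyte and astrocyte nuclei was taken as a guide to the level of free RNA. No oligodendrocyte nucleus had both UMIs (0 of 1272, which allows a share of up to 0.236%, at median depths of 2552 to 3974 UMIs), and 1 of 643 astrocyte nuclei had both. Singly, Esr1 had a UMI in 6.11% of gated GABAergic nuclei (those under the same limits and transmitter rule) and in 1.57% of oligodendrocyte nuclei, and Otx2os1 in 10.9% and 3.54%, but also in 11.98% of astrocyte nuclei. At an equal depth of 2000 UMIs per nucleus, the shares in gated and oligodendrocyte nuclei were 2.49% and 1.10% for Esr1 and 5.25% and 2.04% for Otx2os1, which was in 7.62% of astrocyte nuclei. The 2 RNAs tended to occur in the same nuclei: Otx2os1 had a UMI in 26.9% of gated nuclei with Esr1 and in 9.87% of those without. When every nucleus was thinned to 2000 UMIs, these shares were 12.8% and 5.06%.

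The first question was how large a share of the inhibitory neurons these nuclei form in each strain. In library C57J 1, members made up 1.14% of gated GABAergic nuclei (123 of 10761, exact Clopper-Pearson 95% interval 0.951 to 1.36%), and C57J 2 gave 1.42% (119 of 8353, 1.18 to 1.70%). The nude share was 2.10% (208 of 9923, 1.82 to 2.40%) and the BALB/c share 1.97% (162 of 8225, 1.68 to 2.29%). Both libraries of BALB/c background lay above both C57J libraries, nude by 0.71 and BALB/c by 0.62 on the log2 scale over the mean C57J share, against a difference of 0.32 between the 2 C57J libraries. Within the shared run, against C57J 2 alone, these were 0.56 and 0.47. An exact two-sided permutation test of 2 libraries against 2 cannot give a p below 0.333, so the shares were not tested, and the intervals cover counting error only.

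The rule needs a UMI of each RNA, so its share depends on depth. When each nucleus was thinned to 2000 UMIs and the rule applied again, 14, 14, 40 and 11 members were left in C57J 1, C57J 2, nude and BALB/c, which were 0.170%, 0.229%, 0.528% and 0.178% of the nuclei that passed the transmitter rule at that depth. At 4000 UMIs the shares were 0.608%, 0.921%, 1.51% and 0.768%. At both thinned depths only the nude library stayed above both C57J libraries, and BALB/c lay between them. Among nuclei of 5000 to under 10000 UMIs, members were 1.29%, 1.69%, 2.34% and 1.91%, and among nuclei of 10000 or more UMIs 2.02%, 2.27%, 3.29% and 2.62%. In both, nude was highest and BALB/c was also above both C57J libraries, with the nude and BALB/c intervals each overlapping that of C57J 2. Among gated nuclei with a Trpc4 UMI, chosen after seeing the data and not at equal depth, the shares were 1.49%, 1.69%, 2.38% and 2.68%, with BALB/c highest. Among the shallowest, of 2000 to under 5000 UMIs, BALB/c held 0 of 1418, which allows a share of up to 0.212%, and C57J 1 held 8 of 3248. With at least 2 UMIs of each RNA required, the order changed, with 0.362% and 0.407% in C57J 1 and C57J 2, 0.484% in nude and 0.754% in BALB/c. Predicted doublets, barcodes that may hold 2 nuclei, made up 13.8%, 21.01%, 19.7% and 15.4% of members in C57J 1, C57J 2, nude and BALB/c, against 11.9%, 13.7%, 13.4% and 8.86% of gated nuclei, and without them the shares were 1.12%, 1.30%, 1.94% and 1.83%.

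**Figure D1:**
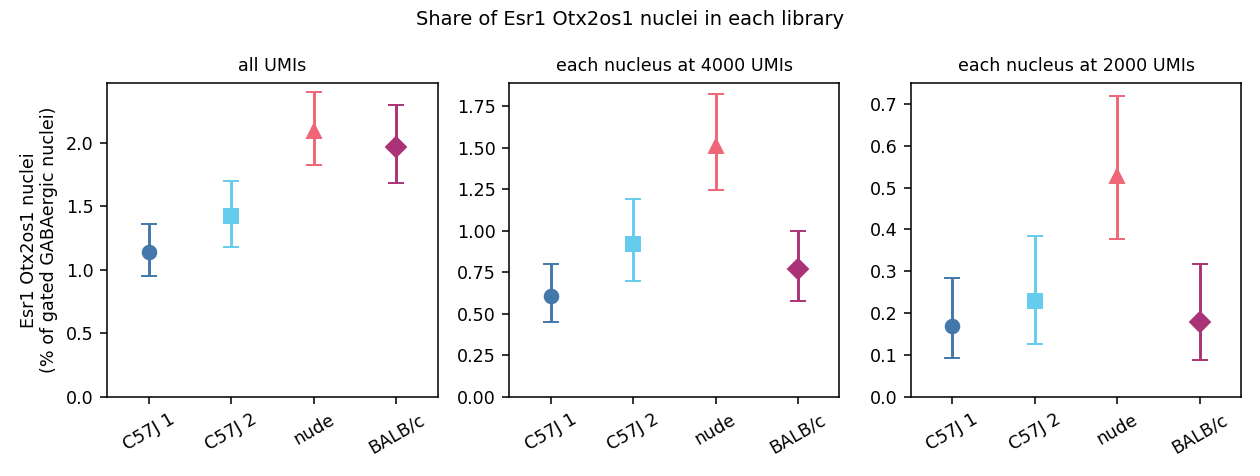
Share of Esr1 Otx2os1 nuclei among gated GABAergic nuclei (%, y axis) in each of the 4 libraries (x axis), from all UMIs and after thinning each nucleus to 4000 or 2000 UMIs; points are the shares, bars the exact 95% intervals, and each panel has its own scale from 0. BALB/c stands at 1.97% with all UMIs and at 0.178% at 2000 UMIs, next to 0.170% and 0.229% in the C57J libraries, whereas nude stays highest in all 3 panels.

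The genes in which the members differed from the other LS GABAergic nuclei were tested on UMIs summed per library and class (edgeR quasi-likelihood test with library as a block, Benjamini-Hochberg adjustment over all genes tested). A gene was called with an adjusted p under 0.05 and a log2 fold change beyond 0.5. Of 16986 genes in the test, 472 (2.78%) were called higher and 692 (4.07%) lower. Leading genes, here and wherever they are named, had at least 20 CPM in the higher class or background. Predicted genes (symbols of Gm and a number, or ending in Rik) were left out of them. Within these limits, genes with the largest called rise were Otx2, Fibcd1, Col18a1, Cdh9, Dlk1, Calcr, Asb4, Oprm1 and Pdlim5. Genes with the largest fall were Dach2, Ntf3, Etv1, Stac2, Mkx, Foxp2, Met, Tmem163 and Hunk. The choice of these 18 required the same sign in the 4 libraries, so that agreement is no result. In each, the range over member libraries lay clear of that of the other LS nuclei except for Calcr, where C57J 1 members lay among them.

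Otx2, a homeodomain transcription factor that patterns the anterior brain, stood highest on this list. Its level in members was 34.0, 34.1, 39.4 and 41.4 CPM, against 3.10, 3.61, 3.38 and 2.77 CPM in the other LS nuclei, a log2 fold change of 3.53 ± 0.17 (SE, adjusted p = 3.14e-20). All member libraries were about equally high. This difference is not independent of the rule. Otx2 (chr14:48657677-48673819, minus strand, protein coding, GRCm38) and Otx2os1 (chr14:48668708-48870683, plus strand, long noncoding) overlap by 5112 bases on opposite strands, and since the sources used here do not say whether the counting used strand, reads of the overlap cannot be told apart. Otx2 was also at 25.6 ± 3.30 CPM in gated nuclei with Otx2os1 and no Esr1 and at 6.87 ± 1.28 CPM in those with Esr1 and no Otx2os1 (SD, n = 4 libraries). In astrocyte nuclei at 2000 UMIs, 7.78% carried an Otx2 UMI, as did 7.35% of members and 0.809% of the other LS nuclei.

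The Otx2 promoter in RefSeq is shown because it lies beside the start of the RNA that defines these nuclei: its transcription start, at base 48667644 of chromosome 14, is 1064 bases from the annotated Otx2os1 start, and the 2 genes point away from each other there. The sequence runs 5′ to 3′ on the minus strand (chr14:48667595-48667894, GRCm38.p6, 250 bases before the start and 50 after), with the homeodomain core TAATTA in capitals.
Otx2 promoter: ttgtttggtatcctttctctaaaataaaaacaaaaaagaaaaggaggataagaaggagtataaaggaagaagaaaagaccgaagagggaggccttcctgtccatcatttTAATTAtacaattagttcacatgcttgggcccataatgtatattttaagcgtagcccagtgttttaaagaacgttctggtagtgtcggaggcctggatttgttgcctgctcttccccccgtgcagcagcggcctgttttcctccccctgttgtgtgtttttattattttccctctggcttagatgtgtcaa
TAATTA, which reads the same on both strands and was searched after the sequence had been seen, was found 1 time here and in 5.30% of 32817 RefSeq promoters of this length. The core bound by Otx2 itself, TAATCC, searched on both strands, was not in this window and is in 7.06% of promoters, and the palindrome of the estrogen response element, GGTCA and TGACC with 3 bases between, was also not in this window and is in 0.0701% of promoters. These are matches of letters only.

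Other genes of the leading set encode proteins of the cell surface and matrix. Cdh9 (chr15:16728756-16857094, plus strand, protein coding, GRCm38), a cadherin that guides the choice of synaptic partners, was at 212, 223, 237 and 197 CPM, against 49.7, 51.7, 54.4 and 39.6 CPM (log2 fold change 2.13 ± 0.06, adjusted p = 1.65e-26). The libraries differed little from each other in either class. Fibcd1, a receptor that binds acetylated sugars and chitin, rose by 2.31 ± 0.17 and Col18a1, a basement membrane collagen whose gene overlaps Slc19a1 on the opposite strand, by 2.21 ± 0.14. Dlk1, an imprinted ligand of the Notch family, was at 81.0, 71.4, 87.4 and 94.7 CPM in the 4 member libraries and at 19.5 to 24.4 CPM in the other LS nuclei (log2 fold change 1.97 ± 0.10). Pdlim5, which anchors kinases to the cytoskeleton, was at 139 and 125 CPM in the C57J members and at 76.9 and 78.7 CPM in nude and BALB/c, against 22.5 to 34.6 CPM.

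**Figure D2:**
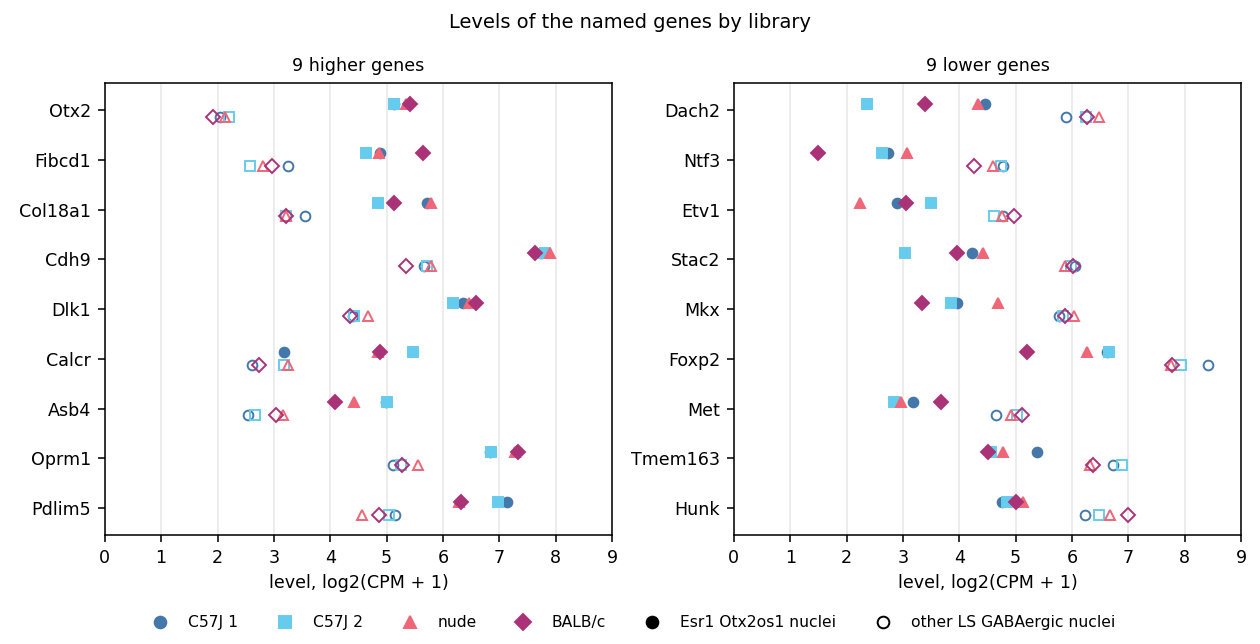
Levels, as log2(CPM + 1) on the x axis, of 9 genes with the largest called rises and 9 with the largest called falls, predicted genes left out (y axis), in each library (colour and shape), for Esr1 Otx2os1 nuclei (filled) and other LS GABAergic nuclei (open). Otx2 and Cdh9 are tightly grouped, with Cdh9 at 197 to 237 CPM in members, whereas Calcr in C57J 1 members, at 8.10 CPM, lies among the open points.

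Among the 16 tested nuclear receptors of hormones other than Esr1, 1 was called higher and 2 lower, with a median log2 fold change of 0.02 against -0.01 over all genes tested. Nr3c2, the mineralocorticoid receptor, fell by 0.83 ± 0.05 and Rarb, a retinoic acid receptor, by 0.86 ± 0.10. Pgr, the progesterone receptor, passed the p threshold but not the size set for a call, at 52.3 to 73.3 CPM against 42.4 to 48.9 CPM (log2 fold change 0.38 ± 0.09, adjusted p = 0.00225), and Nr3c1, the glucocorticoid receptor, had a log2 fold change of 0.47 ± 0.06. Esr2, the gene of estrogen receptor beta, was near the floor of 1.37 to 3.10 CPM that 3 counts give in a library, at 1.03 to 4.31 CPM. At 2000 UMIs per nucleus, a Pgr UMI was found in 12.3% of members (75 of 612, 95% interval 9.76 to 15.1%), in 8.00% of the other LS nuclei and in 1.97% of oligodendrocyte nuclei. None of the 19 tested cofactors and known targets of the estrogen receptor was called in either direction, Pgr included, and their median log2 fold change was -0.02.

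Of 43 tested receptors for peptide hormones and neuropeptides, 4 were called higher and 7 lower (median -0.26). The prolactin receptor gene Prlr was the most abundant of those that rose, at 260, 280, 324 and 304 CPM against 85.2, 98.9, 115 and 86.8 CPM (log2 fold change 1.57 ± 0.06, adjusted p = 2.1e-23). Member libraries were all more than 2 times as high as the other LS library of the same strain. Calcr (chr6:3685680-3764714, minus strand, protein coding, GRCm38), the calcitonin and amylin receptor that the study used with Pth2r to mark another LS subcluster, was at 8.10, 43.5, 27.7 and 28.7 CPM against 5.13 to 8.56 CPM (log2 fold change 1.92 ± 0.19, adjusted p = 7.69e-11). C57J 1 stood apart as low. Tacr3, the neurokinin B receptor, was at 17.9 to 26.9 CPM against 6.01 to 8.64 CPM (1.56 ± 0.18), and Hcrtr1, orexin receptor 1, was at 4.31 to 7.29 CPM against 0.843 to 1.13 CPM (2.43 ± 0.38). The receptors that fell were Crhr2, Lepr, Galr1, Crhr1, Calcrl, Hcrtr2 and Adcyap1r1. Crhr2, the receptor of urocortins, was at 2.43, 0, 4.31 and 5.01 CPM against 11.3 to 15.9 CPM (-2.05 ± 0.28). The pair of orexin receptors thus changed in opposite directions, with Hcrtr2 at 4.86 to 12.4 CPM against 14.1 to 18.7 CPM (-0.96 ± 0.20). Glp1r, the receptor of glucagon-like peptide 1, was not called (-0.15 ± 0.19).

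Of 17 tested neuropeptide genes, 2 were called higher and 4 lower. Penk, the enkephalin precursor, was at 24.3, 31.0, 25.9 and 38.2 CPM against 23.7, 16.6, 12.9 and 21.2 CPM (log2 fold change 0.68 ± 0.14), with C57J 1 members nearly level with their own library's other nuclei. Cartpt rose by 0.56 ± 0.18. Nts, neurotensin, fell by 1.58 ± 0.18 on the log2 scale, from 24.8 to 37.8 CPM in the other LS nuclei to 6.37 to 17.6 CPM in members. Pdyn, Tac1 and Npy also fell, all at low counts. Sst had a log2 fold change of -0.35 ± 0.11 and was not called.

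The monoamine and opioid receptors changed in both directions, with 4 of 23 tested called higher and 5 lower. Oprm1 (chr10:6758506-7038198, plus strand, protein coding, GRCm38), the mu opioid receptor, which overlaps Ipcef1 on the opposite strand, was at 113, 115, 154 and 161 CPM against 33.5, 37.4, 46.2 and 37.7 CPM (log2 fold change 1.79 ± 0.08, adjusted p = 1.42e-21). The lowest member library was over 2 times the highest of the other LS libraries. Oprk1, the kappa opioid receptor, fell by 1.10 ± 0.29. Htr2c, a Gq-coupled serotonin receptor, was at 857 to 923 CPM against 402 to 498 CPM (1.00 ± 0.05, adjusted p = 1.11e-18), and Htr7 and Htr2a rose by 0.70 ± 0.07 and 0.64 ± 0.16. Drd2 and Drd3, dopamine receptors of the inhibitory class, fell by 0.59 ± 0.11 and 1.21 ± 0.23, Htr1f by 0.52 ± 0.07 and Adra1a by 1.09 ± 0.13. Of 13 tested metabotropic glutamate, cannabinoid, muscarinic and GABA-B receptors, Grm8 alone was called higher (0.79 ± 0.06) and 5 were called lower. Chrm3, a muscarinic acetylcholine receptor, was at 208, 216, 268 and 219 CPM in the members against 590, 623, 598 and 596 CPM (-1.44 ± 0.06, adjusted p = 3.64e-22). Grm4, Grm7 and Cnr1, the cannabinoid receptor, also fell, by 0.63 to 1.64, Grm4 the most (-1.64 ± 0.15). At 2000 UMIs per nucleus, a Grm7 UMI was in 60.8% of members and 62.4% of oligodendrocyte nuclei and a Cnr1 UMI in 6.21% and 7.08%. Neither share in members was above that in oligodendrocyte nuclei, and the same held for Nts (2.45% and 6.21%). Whether the oligodendrocyte shares were free RNA or RNA of those nuclei was not tested.

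Among the receptors of fast transmission, of 30 tested GABA-A and ionotropic glutamate subunits 4 were called higher and 3 lower, with a median of 0.02. The GABA-A subunits Gabra3, Gabrq and Gabre rose together, by 0.66 ± 0.06, 1.78 ± 0.28 and 1.70 ± 0.40, and all 3 lie in 1 gene cluster of the X chromosome. Gabra3 was at 171 to 206 CPM against 104 to 126 CPM, whereas Gabrq was at 4.55 to 12.3 CPM and Gabre at 2.07 to 6.16 CPM. The kainate subunit Grik1 rose and the AMPA subunits Gria1 and Gria3 and the delta subunit Grid1 fell, each by 0.51 to 0.61. Of 35 tested potassium channel genes, 1 rose, Kcnt2, a sodium-activated channel (0.52 ± 0.05), and 5 fell, among them Kcnd3, an A-type channel (-0.63 ± 0.06). Of 36 tested axon guidance genes, 4 rose and 9 fell. Efna5 (0.90 ± 0.05), Nrp2, Plxnc1 and Sema3c rose, while the Eph receptors Epha3, Epha4, Epha6 and Epha10 fell, Epha3 the most (-1.20 ± 0.07), so the ligand Efna5 and receptors of its class moved in opposite directions. Slit1 and Slit3, repellent ligands of Robo receptors, fell by 0.97 ± 0.09 and 1.02 ± 0.07.

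Transcription factors of the septum and ventral forebrain were called lower in 19 of 45 tested and higher in 3, with a median log2 fold change of -0.57. The 3 that rose were Otx2, Six3 (1.04 ± 0.15) and Lhx8 (0.96 ± 0.19), the latter known from cholinergic neurons of the basal forebrain. Among those that fell, Foxp2, a forkhead factor known for its part in vocal learning, was at 98.0, 100, 75.7 and 35.96 CPM against 339, 244, 214 and 219 CPM (-1.83 ± 0.10). Dach2 was at 21.1, 4.14, 19.1 and 9.56 CPM against 58.3, 75.0, 87.7 and 75.9 CPM (-2.50 ± 0.16). At equal depth, both were found in a smaller share of members than of the other LS nuclei. At 9.97% and 1.96%, the shares of members were also no larger than those of oligodendrocyte nuclei (13.2% and 9.12%). Meis2, a homeodomain factor of striatal and septal GABA neurons, fell from 887 to 975 CPM to 288 to 430 CPM (-1.32 ± 0.06), and Pax6, Ebf1, Meis1, Sox6, Satb1 and Dlx1, which act in forebrain interneuron development, were among the others that fell.

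Immediate early genes, which neurons switch on within minutes of activity, were called lower in 10 of 19 tested (median -0.61). The isolation buffer held actinomycin D, which blocks transcription. Fos was at 1.62, 4.14, 3.69 and 7.28 CPM in members against 10.1, 9.61, 6.43 and 13.4 CPM (-1.19 ± 0.26, adjusted p = 0.000913), so members were lower within each library although the groups overlap across libraries. Arc fell by 1.07 ± 0.19, Egr3 by 0.92 ± 0.16, Egr4 by 1.14 ± 0.19, and Homer1, the most abundant, by 0.61 ± 0.07 from 230 to 306 CPM to 162 to 198 CPM. Bdnf, the neurotrophin, was the exception: it rose, at 13.8, 16.6, 11.1 and 9.56 CPM against 2.47, 3.14, 3.47 and 2.58 CPM (2.04 ± 0.25, adjusted p = 1.86e-08). Ntf3, the related neurotrophin 3, fell by 2.31 ± 0.22.

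Genes of the motile cilium and its axoneme, the moving core of dyneins and microtubules, were called higher in 15 of 39 tested and lower in 1, with a median of 0.61. Spag16, of the axoneme's central pair, was at 107, 115, 123 and 68.7 CPM against 37.6, 37.5, 43.5 and 23.2 CPM (log2 fold change 1.498 ± 0.08, adjusted p = 7.09e-19), with BALB/c the lowest library in both classes. The dynein heavy chains Dnah2, Dnah5, Dnah6, Dnah7a, Dnah7b and Dnah10 rose by 0.60 to 1.26, and Dnah11 fell by 0.95 ± 0.31. Cfap69, which is also found in olfactory neurons, was at 131 to 147 CPM against 84.4 to 91.9 CPM (0.61 ± 0.07). Foxj1, the master regulator of motile cilia, was at 0, 1.03, 0 and 0.455 CPM in members, and the 4 ependymal markers, from the cells that carry motile cilia in this region, summed to 0.616 to 3.64 CPM against 1.80 to 4.25 CPM. Of 32 tested genes of the primary cilium, the sensory cilium that neurons carry, 1 was called higher (Bbs9, 0.54 ± 0.06) and none lower. Of 22 tested cytokine receptors none was called higher. Il1rapl1, which acts at synapses, and Cntfr fell by 0.53 each, and Il4ra, the interleukin 4 receptor, stood at 1.03 to 4.92 CPM.

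**Figure D3:**
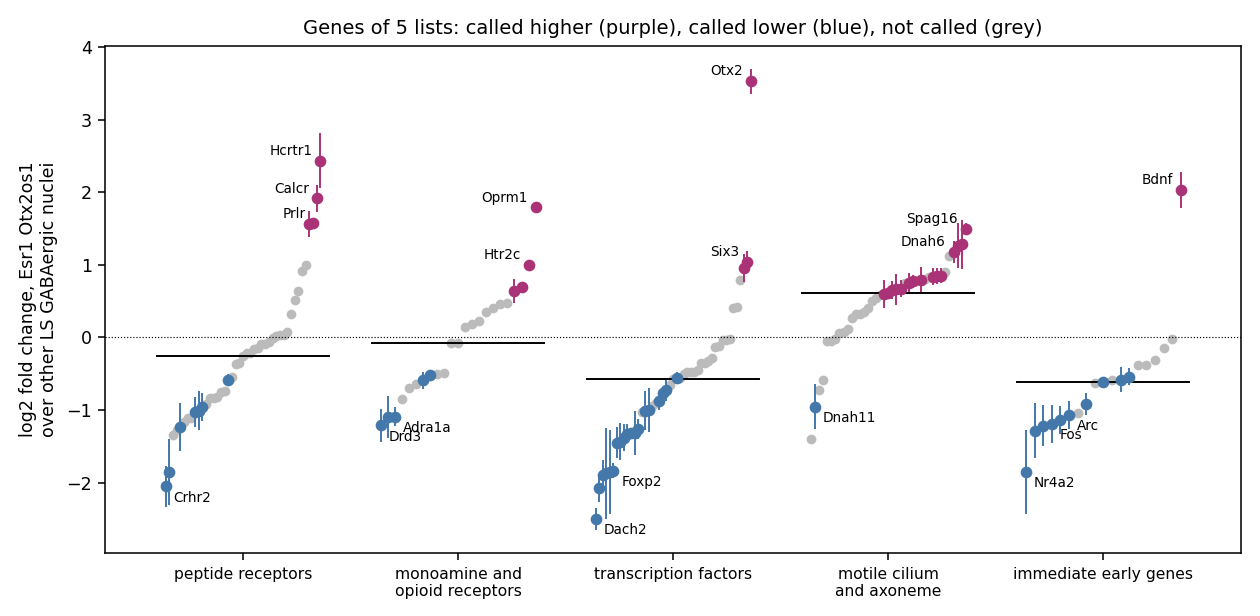
Log2 fold change of Esr1 Otx2os1 nuclei over other LS GABAergic nuclei (y axis) for every tested gene of 5 lists, sorted within each list (x axis); purple and blue points were called, with bars for the SE, grey points were not, and black lines are list medians. The motile cilium list sits above 0 with a median of 0.61, while the medians of the transcription factors, among which Otx2 is highest at 3.53, and of the immediate early genes, among which Bdnf is highest at 2.04, lie below 0.

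Among genes that the study used to mark other LS subclusters or that it followed across strains, Grid2ip (-2.03 ± 0.25), Col15a1 (-1.15 ± 0.20), Sema3a (-0.94 ± 0.12), Ddr2 (-0.87 ± 0.20) and Acvr1 (-0.60 ± 0.08) fell and Tafa2 (0.87 ± 0.06) rose. Col15a1 and Ddr2 were not called at 2000 UMIs per nucleus. Pth2r, Ndn, Synpo, Cpa6, Ptchd1, Ndrg4 and Chat were not called. A Chat UMI, the mark of cholinergic neurons, was in 5 of the 612 members.

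Nuclei with only 1 of the 2 RNAs were set beside the members, as values with no test. For all 9 genes named above with the largest rise, the mean level in nuclei with Otx2os1 and no Esr1 (3453 nuclei) and in nuclei with Esr1 and no Otx2os1 (1663 nuclei) lay between the other LS nuclei and the members. In Calcr the BALB/c library went against this with Esr1 alone, at 3.34 CPM against 5.65 CPM in its other LS nuclei. Cdh9, for example, averaged 48.8 CPM in the other LS nuclei, 91.4 CPM with Esr1 alone, 93.9 CPM with Otx2os1 alone and 217 CPM in members. Prlr averaged 96.4, 153, 168 and 292 CPM in the same order. Both were thus highest where both RNAs were found. Foxp2 did not follow, at 257 CPM with Esr1 alone and 107 CPM with Otx2os1 alone, next to 254 CPM in the other LS nuclei and 77.5 CPM in members. Of the 15 motile cilium genes that rose, all 15 were between by their means with Esr1 alone and 13 with Otx2os1 alone, and 9 and 13 were above the other LS nuclei in each of the 4 libraries. The 4 ependymal markers summed to 9.07, 2.50, 7.08 and 26.99 CPM with Otx2os1 alone (C57J 1, C57J 2, nude, BALB/c), against 4.25, 2.84, 1.80 and 3.21 CPM in the other LS nuclei, and to 2.10 to 3.76 CPM with Esr1 alone. The 6 astrocyte markers summed to 1407, 766, 660 and 1438 CPM with Otx2os1 alone, against 754, 469, 570 and 620 CPM in the other LS nuclei. The part of either list in these levels was not tested.

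The members were next compared with 3 other sets of gated nuclei defined by marker pairs of the study's other subclusters. Against 97 Pth2r Calcr nuclei (19 to 27 per library), the test of 7697 genes called 118 higher (1.53%) and 112 lower (1.46%). Otx2 (4.06 ± 0.60), Col18a1, Fibcd1, Pdlim5 and Oprm1 led the rise among genes of at least 20 CPM other than predicted ones. Oprm1 was at 113 to 161 CPM against 9.31 to 38.5 CPM (2.55 ± 0.27). Arhgap36, Fras1, Tox, Dgkk and Stxbp6 led the fall, with Tox, a nuclear factor best known from T cell development, at 80.1 to 130 CPM against 367 to 422 CPM (-1.96 ± 0.14). Otx2 and Col18a1 were at 0 in 2 of the 4 Pth2r Calcr sums, so their size here is uncertain, Fibcd1 was not called without BALB/c (adjusted p = 0.0857), and Arhgap36 was not called without C57J 1 (0.0721) or without C57J 2 (0.130). None of the 16 tested motile cilium genes was called in this comparison, with a median of 0.04, and Prlr (1.05) and Htr2c (1.27) were called higher. With only 97 nuclei in that set, fewer genes could be tested.

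Against 844 Crhr2 Dach2 nuclei, 917 of 10831 genes were called higher (8.47%) and 819 lower (7.56%). Otx2 (4.39 ± 0.29), Fibcd1, Tmem132d, Sema3c and Ecel1 led the rise. Tmem132d was at 472 to 547 CPM against 25.8 to 69.9 CPM. Dock5, Grid2ip, Lama3, Stac2 and Lhx2 led the fall, by 3.99 to 4.32, and Lama3, a laminin chain, was at 8.10 to 23.2 CPM against 189 to 320 CPM. Of 14 tested immediate early genes 9 were lower here (median -1.22), and of 22 motile cilium genes 12 were higher and 1 lower. Against 837 Cpa6 Col15a1 nuclei, 806 of 11544 genes were called higher (6.98%) and 825 lower (7.15%). Col18a1 (3.92 ± 0.23), Ptprm, Otx2, Gpc3 and Ptpru led the rise and Pik3c2g (-5.85 ± 0.39), Ntf3, Mctp2, Chrdl1 and Slc26a4 the fall. Ptprm, a receptor phosphatase of cell contacts, was at 398 to 518 CPM against 37.4 to 45.8 CPM (3.37 ± 0.09). Of 33 tested transcription factors 8 were called higher and 10 lower (median -0.06), and Lhx8 (3.03), Nkx2-1 (1.91) and Six3 (2.00) were higher than in the Cpa6 Col15a1 nuclei. Of 22 motile cilium genes 11 were higher and 0 lower. Immediate early genes were lower in 3 of 15 and higher in 1 (median -0.06). Oprm1 and Otx2 were called higher against each of the 3 sets. The sets share the member libraries, so these comparisons are not independent of each other.

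The members were not of 1 kind. Clustering split them into 9 groups of 27 to 122 nuclei, each with nuclei of all 4 libraries, and the genes that lead each group are given as a description, since they defined it. Group 1 (122 nuclei) was led by Sfta3-ps, Tafa2, Eya4, Penk and Lhx8. Group 2 (115) was led by Tshz2, Adarb2, Chat, Vwc2l and Foxp2, with Chat resting on 3 nuclei. Group 3 (93) was led by Calcr, at 112 CPM, and Tafa1, and held 28 of the 56 members with a Calcr UMI. It made up 10.6% of C57J 1 members and 14.2 to 19.3% of the others. Group 4 (90) was led by Pde1c, Col11a1, Kcnmb2 and Col18a1 and had the highest Spag16 (247 CPM). Group 6 (40), led by Cdh12, Col18a1 and Pdlim5, had the highest Otx2, Prlr and Cdh9, at 82.1, 597 and 460 CPM. Groups 7 (37) and 8 (35) were led by D7Ertd443e and Csgalnact1, and by L3mbtl4, Sulf1 and Reln.

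Predicted doublets were uneven among the groups. They made up 81.5% of group 9 (27 nuclei), which was led by the astrocyte genes Mertk, Etnppl and Slc1a3 and carried Slc1a2 at 1938 CPM, and 47.2% of group 5 (53), led by Cpa6 and Col23a1 with a median depth of 12398 UMIs, but 0% of group 6 and 2.22% of group 4. Otx2, Dlk1, Oprm1, Prlr, Htr2c and Dnah6 were above the mean of the other LS nuclei in all 9 groups, and Cdh9 in 8, all but group 4. Calcr was above it in 4, and Lhx8 in 3, among them groups 1 and 2 at 44.0 and 33.5 CPM. Foxp2, Fos and Arc were below it in all 9. With predicted doublets removed from both classes, 521 genes were called higher and 840 lower against the other LS nuclei, 1073 of them shared with the 1164 called with all nuclei.

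**Figure D4:**
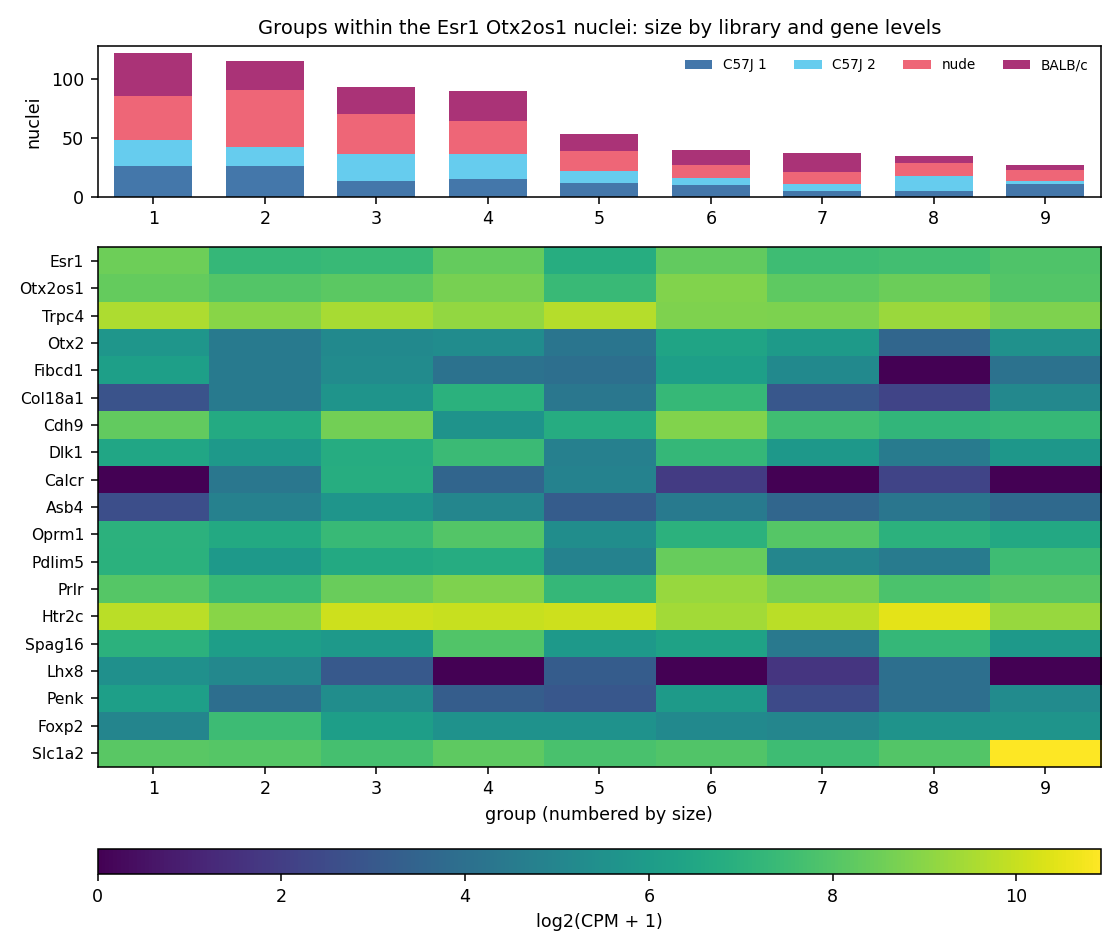
Top, number of Esr1 Otx2os1 nuclei (y axis) in each of the 9 groups (x axis), stacked by library; bottom, level of named genes (rows) in each group as log2(CPM + 1) (colour). Calcr is at 112 CPM in group 3 and at 0 in groups 1, 7 and 9, Slc1a2 is at 1938 CPM in group 9, Prlr runs from 152.7 CPM in group 5 to 597 CPM in group 6, and Htr2c from 499.5 CPM in group 2 to 1403 CPM in group 8.

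The last question was which genes differ in these nuclei between the genetic backgrounds. With 2 C57J libraries against nude and BALB/c together, 25 of the 10606 genes in the test (0.236%) were called higher in the BALB/c background and 33 (0.311%) lower, by edgeR's quasi-likelihood test, and 964 had an unadjusted p under 0.05. Dnah7a, Eya4, Zfp808 and Cfap54 were among the leading rises in genes of at least 20 CPM other than predicted ones. Cfap54, an axonemal protein gene, was at 90.7, 111, 319 and 317 CPM (log2 fold change 1.68 ± 0.14, adjusted p = 6.47e-06), and Dnah7a was at 9.71, 15.5, 83.7 and 66 CPM (2.60 ± 0.28). In both genes the nude and BALB/c libraries were close to each other. Their separation from both C57J libraries was a condition for being named. Dnah6 and Cfap61 rose too, so 4 of 23 tested motile cilium genes were higher and none lower (median 0.14). Of the other lists, Slit1 rose and Epha6 fell among axon guidance genes. No gene was called among nuclear receptors, estrogen receptor cofactors, peptide receptors, neuropeptides, cytokine receptors, primary cilium, transmitter receptors, potassium channels, transcription factors or immediate early genes, and no gene that the study followed was called.

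The leading falls among genes of at least 20 CPM other than predicted ones were Cldn34c1, Mcmdc2, Fggy, Zfp40 and Mobp. Some called genes below that level fell by more than Mcmdc2. Cldn34c1, a claudin-like gene, stood at 35.6 and 37.2 CPM in members of the C57J libraries and had 0 counts in the nude and the BALB/c members, which is at least 22.7-fold lower when each of these libraries is set to the floor of 3 counts. Fggy, a carbohydrate kinase, was at 78.5, 62.1, 23.4 and 11.4 CPM (-2.06 ± 0.29). Mobp, a myelin gene of oligodendrocytes, was at 58.3, 37.2, 16.6 and 16.8 CPM (-1.52 ± 0.28), and the 6 oligodendrocyte markers summed to 432, 408, 305 and 283 CPM in members and to 469, 454, 312 and 296 CPM in the other LS nuclei, with Mog at 3.24 to 9.23 CPM. The part of oligodendrocyte RNA in this result was not tested. Only 20 genes were called without C57J 1, that is, within the shared run, 19 of them among the 58, and 170 without nude. Eya4, Zfp808 and Mobp were not called without C57J 1, and Mcmdc2 was not called without C57J 2. Each of these fits leaves a group with a library alone, so the spread comes from the other group only. A lost call there does not show that the effect itself was lost.

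In the other LS nuclei of the same libraries 385 of 19327 genes were called (1.99%), and all the leading genes named above were among them but Mobp. Eya4 had a log2 fold change of 1.04 ± 0.17 there and 1.94 ± 0.34 in members, and the difference was not called. Cfap54 was at 70.3, 76.0, 257 and 250 CPM there and Fggy at 62.1, 61.0, 12.8 and 10.4 CPM, each with the same split of libraries as in members. The test of the difference between the 2 classes called 4 of 16986 genes (0.0235%), Glp1r, L3mbtl4, Gpc5 and Cpne4, with 904 at an unadjusted p under 0.05. Glp1r was at 12.95, 12.4, 20.9 and 25.0 CPM in members, and at 32.5, 25.1, 14.2 and 17.4 CPM in the other LS nuclei, so the backgrounds stood in opposite order in the 2 classes (difference of log2 fold changes 1.75 ± 0.30, adjusted p = 0.0148). In members alone its background effect was not called (0.87 ± 0.32, adjusted p = 0.367). L3mbtl4, a chromatin reader that also leads group 8, was at 40.5, 45.5, 25.9 and 15.5 CPM in members and at 9.83, 10.6, 16.4 and 11.5 CPM in the other LS nuclei.

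**Figure D5:**
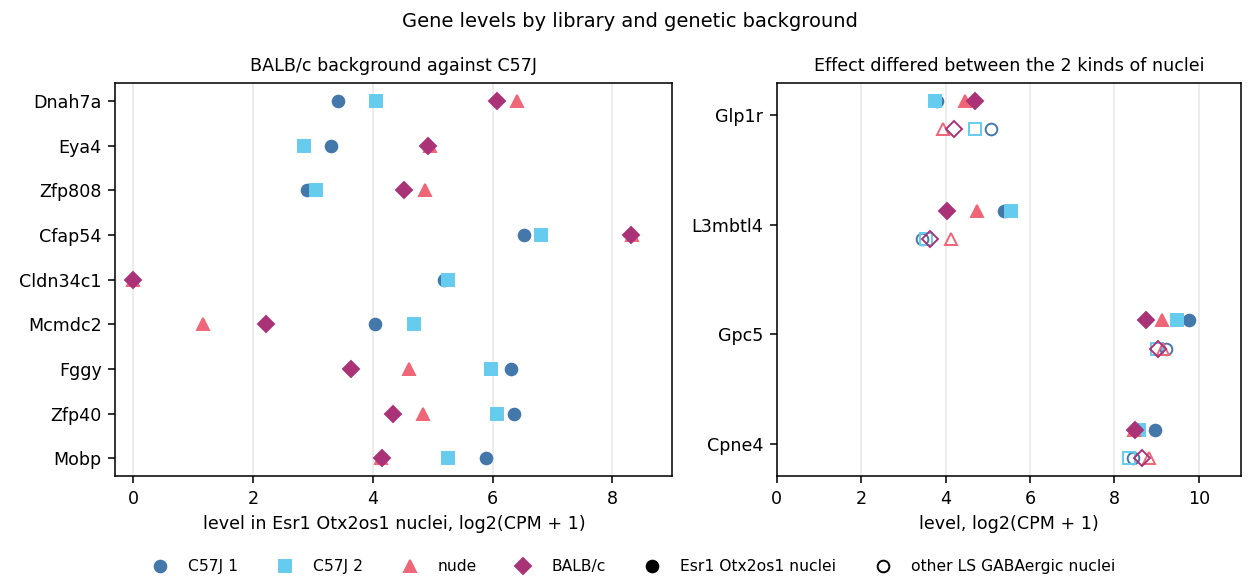
Left, levels in Esr1 Otx2os1 nuclei, as log2(CPM + 1) on the x axis, of 4 genes with the largest called rises and the 5 with the largest called falls in the BALB/c background, predicted genes left out (y axis), by library; right, the 4 genes whose background effect differed between Esr1 Otx2os1 nuclei (filled) and other LS GABAergic nuclei (open). Cldn34c1 is at 0 in nude and BALB/c, and Glp1r is 12.4 to 12.95 CPM in C57J members and 20.9 to 25.0 CPM in nude and BALB/c members.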

How the data were processed

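Single-nucleus RNA-seq libraries (10x Genomics, 3′) had been aligned to mm10 with Cell Ranger 7.0.1 by the authors, who deposited raw UMI counts per gene and barcode; library totals were 102939576, 72912922, 82169638 and 125998527 UMIs (C57J 1, C57J 2, nude, BALB/c). Whether intronic reads or strand were used is not given in the sources used here. UMIs were summed per library and class and tested with edgeR 4.0.16 (R 4.3.3; TMM, filterByExpr, quasi-likelihood F test), with library as a block for classes, since each library gave both. Rule genes were left out of the tests. Each replicate is a pool of 3 mice. Doublets were scored per library with scanpy 1.11.5 (Scrublet; the top 0.8% per 1000 nuclei) and kept. Members were clustered by Leiden at resolution 0.5. On simulated counts the class test recovered 55.7% of genes changed by 1 and 83.7% of those changed by 2 (log2). The background test in members recovered 52.6% and 90.7%, and the test of the difference between classes 38.8% and 64.3%. Named genes were the 10 largest called rises and falls (5 and 5 in other comparisons) with at least 20 CPM in the higher class and 1 sign in all libraries (libraries not overlapping between backgrounds), leaving out predicted genes (Gm and digits, Rik), plus rule, study and list genes; others of a list were named by value. The members and lists were chosen with earlier results of these data known. Positions are from GENCODE M21. Alternatives were DESeq2 1.42.0, other filters, thinning, doublets removed, stricter rules and leaving out each library. Some genes that met these rules are not reported here by name.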

Additional observations from a re-analysis of the deposited data

Results flagged for a closer look

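Of 16986 genes, 4 had a background effect that differed between Esr1 Otx2os1 nuclei and the other LS GABAergic nuclei by the test of the difference itself (edgeR, members minus others, log2). Glp1r differed by 1.75 (adjusted p = 0.0148), and over 11 alternatives its value ran from 1.56 to 2.81, with adjusted p from 0.000124 to 0.298 and a call in 8. L3mbtl4 differed by -1.50 (adjusted p = 0.0148), with adjusted p from 8.22e-05 to 0.509 and a call in 8 of 11. Gpc5, a glypican also abundant in astrocytes, differed by -0.65 (adjusted p = 0.00669), with adjusted p from 2.88e-07 to 0.0929 and a call in 10 of 11. It was at 869, 710, 558 and 427 CPM in members (C57J 1, C57J 2, nude, BALB/c), and the 6 astrocyte markers summed to 658, 447, 454 and 281 CPM in the same libraries, whose part in this result was not tested. Cpne4 differed by -0.62 (adjusted p = 0.0176), with adjusted p from 3.33e-05 to 0.617 and a call in 8 of 11. None of the 4 was called with at least 2 UMIs of each rule gene required, and Glp1r and Cpne4 were not called without C57J 1. That last fit leaves C57J 2 as the only C57J library, so a lost call there does not show that the effect was lost. Over the 11 alternatives the value ran from -0.76 to -0.48 for Cpne4, -1.66 to -1.40 for L3mbtl4 and -0.78 to -0.51 for Gpc5.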

How the results depend on the processing

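Over 2299 values of named genes under alternatives, 2067 kept direction and side of the threshold, 61 lost a call, 41 gained one and 130 uncalled values changed sign; no called value did. The share of members over the C57J mean (log2) ran without either C57J library from 0.56 to 0.87 for nude and 0.47 to 0.79 for BALB/c. Thinned to 2000 UMIs it was 1.41 for nude and -0.17 for BALB/c, with 2 or more UMIs of each rule gene 0.33 and 0.97, and, chosen after seeing the data, thinned to 4000 UMIs 0.99 and 0.0064. By depth it was 1.40 for nude at 2000 to under 5000 UMIs, and 0.36 and 0.29 for BALB/c at 5000 to under 10000 and at 10000 or more UMIs; BALB/c at 2000 to under 5000 UMIs had 0 members and gives no value.

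Counts called: against the other LS nuclei 1164 became 682 thinned, 2077 by adjusted p alone and 712 with no replicate block, although each library gave both classes. With all double-negative GABAergic nuclei as the comparison it was 1499, with 454 higher and 1045 lower. Against Pth2r Calcr nuclei 230 became 152 by DESeq2 and 142 thinned, and 298 with no filter on low counts (191 higher, 107 lower). Against Crhr2 Dach2 nuclei 1736 became 900 thinned, and against Cpa6 Col15a1 nuclei 1631 became 807 thinned and 2517 by adjusted p alone. Between backgrounds in members 58 became 25 by DESeq2, 186 with no filter, 21 thinned (5 higher, 16 lower), 9 with 2 or more UMIs of each rule gene, and 20 to 170 without 1 library; in other LS nuclei 385 became 673, 1016, 136 and 40 to 854. The difference test's 4 became 1 by DESeq2, 18 with no filter, 24 without doublets, 15 with 2 or more UMIs, 19 without Calcr nuclei (chosen after seeing the data) and 7 to 71 without 1 library. Resolution 1 gave 14 groups instead of 9. No other count passed 1.5 times; the causes were not tested. Requiring more rule UMIs cannot alter the other LS nuclei and was not run there. Depth limits rare RNAs: 3 counts are 1.37 to 3.10 CPM in a library's members.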
